A study of Mus musculus with 23 samples.

Results

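The enzymes described here are 31 mouse genes for mitochondrial fatty acid beta-oxidation, its electron transfer and ketone body handling, together with the related acyl-CoA enzymes of propionate, branched-chain amino acid and lysine breakdown. They were chosen by gene name from 26522 genes listed in either of the deposited tables of liver RNA sequencing, and all 31 were present in both tables. The study measured polyadenylated RNA from whole livers of 23 mice in 4 groups. All of them carried the B100 genotype, spent 16 weeks on a diet that the labels call WD, and were necropsied fed. Controls (B100-Control, 6 females and 5 males) were compared with LKO animals (B100-LKO, 6 females and 6 males). LKO is the hepatic ablation of Cpt1a that the title of the series names. The sources used here do not give the Cre driver, the age of the mice or the meaning of B100. The male controls are replicates 1, 2, 3, 4 and 6 of the labels. The labels number the samples without naming litters or cohorts, so p-values measure the spread between these samples.

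In mitochondrial beta-oxidation, fatty acids enter the matrix as acylcarnitines made by the outer-membrane enzyme Cpt1a, and each cycle then removes an acetyl unit through dehydrogenation, hydration, a further dehydrogenation and thiolysis. The acyl-CoA dehydrogenases pass their electrons to the electron transfer flavoprotein and on to ubiquinone. In the liver much of the acetyl-CoA is turned into ketone bodies, and many of these genes are known targets of the nuclear receptor PPAR-alpha. Removing Cpt1a takes away the main entry of long-chain fatty acids into this pathway, so the comparison addresses whether the RNA of the enzymes downstream of that entry differs between LKO and control livers.

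Cpt1a itself was lower in every LKO liver. Its level was 388 ± 59.2 CPM (counts scaled to library size; SD, n = 6) in control females against 75.9 ± 8.88 in LKO females, and 357 ± 50.4 (n = 5) in control males against 63.1 ± 20.3 (n = 6) in LKO males. The log2 fold change was -2.35 (SE 0.12, edgeR adjusted p = 3.69e-08) in females and -2.50 (SE 0.19, adjusted p = 9.97e-05) in males. Total counts ran from 14224665 to 19626662 per liver, and member counts ran from 114 to 24460 per gene and liver. The summed level of 10 hepatocyte markers, none of them at 0, lay between 62184 and 116785 CPM in all 23 livers. Among markers of other cell types, Gpnmb, Trem2 and Spp1 rose in LKO females, and none was called in LKO males. Gpnmb and Trem2 are 2 of 10 Kupffer cell and macrophage markers. Of these 10, 5 were above 0 and 5 below in LKO females, with a median log2 fold change of 0.01. Their summed level had a median of 810 CPM in control females and 819 in LKO females. In whole tissue, fewer cells of a type and less RNA per cell cannot be told apart.

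No member passed the test for genotype in either sex. In females 0 of 31 passed an adjusted p of 0.05 in edgeR, where 1.42 percent of the 13684 genes tested did. In males 0 of 31 passed, where 1 gene of 13805 did (0.00724 percent), and that gene was Cpt1a. Averaged over both sexes 0 of 31 passed, where 0.545 percent of 14503 genes did. The test of a genotype effect that differs between the sexes called 0 of 31 and 0 percent of all genes. At an unadjusted p under 0.05 edgeR gave 7 members in females, 3 in males, 2 in the average and 5 in the interaction. Over all genes those shares were 15.6, 12.5, 14.8 and 12.9 percent. DESeq2 also called 0 members in each of the 4 tests, with 7, 4, 3 and 5 at an unadjusted p under 0.05. The same held for limma-trend on log2(FPKM + 1), with 0 called in each and 7, 3, 3 and 5 at an unadjusted p under 0.05. In the authors' deposited table of comparisons, 0 of 31 members had an adjusted p under 0.05 in either sex. Its adjusted p equals that of the DESeq2 run for Hadhb in females (0.0663) and Acad9 in males (0.188). It is therefore not counted as a separate analysis.

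The intervals were narrow. Female log2 fold changes ran from -0.18 to 0.36, that is, from 0.885 to 1.28 times the control level, with standard errors of 0.06 to 0.15. The male values ran from -0.28 to 0.30, or 0.824 to 1.23 times the control level. All 31 of the 95 percent intervals lay within a 2-fold change in each sex. In females 30 of 31 lay within a 1.5-fold change, and Hadhb was the exception, with an upper bound of 0.60. In males 30 of 31 did so, and Acadvl was the exception, with an upper bound of 0.59. Averaged over the sexes all 31 intervals lay within a 1.5-fold change. LKO and control livers overlapped for every member in both sexes, where the groups did not overlap for 1.59 percent of genes in females and 1.77 percent in males.

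The direction was mixed. In females 20 of 31 members had a log2 fold change above 0 and 11 below, with a median of 0.07, where 51.1 percent of all genes were above 0 and their median was 0.01. In males 17 were above 0 and 14 below, with a median of 0.02, where 52.1 percent of all genes were above 0 and their median was 0.01. Averaged over both sexes 21 of 31 were above 0, with a median of 0.05, where 52.6 percent of all genes were. Scaling by library size alone put 22 of 31 above 0 in males and 27 in the average. Single livers moved these medians. Without LKO male replicate 5, whose members stood high, the male median was -0.015, with 12 of 31 above 0, and the average median was 0.024. Without LKO female replicate 3 the female median was 0.037.

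**Figure D1:**
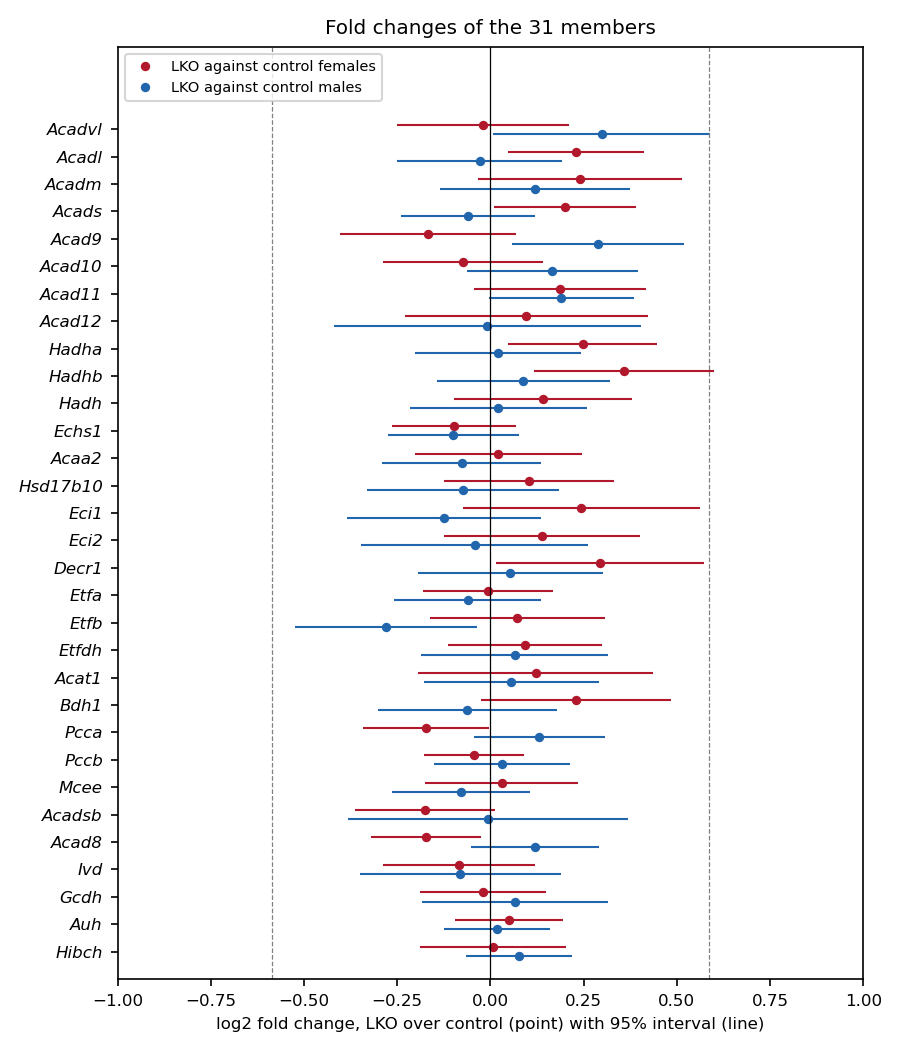
Log2 fold change of each member, LKO over control, in females (red) and males (blue), as a point with its 95 percent interval; the dashed lines mark a 1.5-fold change. Every interval lies within a 2-fold change, and Hadhb in females and Acadvl in males are the intervals that cross a dashed line.

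Levels between genes were compared as deposited FPKM, which divides by gene length and was scaled within the table of each sex. Acaa2, the mitochondrial thiolase that ends the cycle for medium and short chains, was the highest member in all 4 groups, at 717 ± 95.1 FPKM in control females and 826 ± 93.5 in control males. Gcdh, the glutaryl-CoA dehydrogenase of lysine breakdown, was the second-ranked member in all 4 groups, at 180 to 188 FPKM, and Etfa, a subunit of the electron transfer flavoprotein, stood at 182 ± 13.3 in control females. Gcdh and Etfa did not differ beyond their spread there. At the low end, control females held 2.05 ± 0.436 FPKM of Acad12 and 2.93 ± 0.297 of Acad9, and control males held 2.91 ± 0.897 of Acad12 and 2.33 ± 0.399 of Acad9. Acad9 is better known as an assembly factor of respiratory complex I. Among the 4 classic dehydrogenases the order in control females was Acadl at 132, Acads at 121, Acadm at 81.5 and Acadvl at 65.1 FPKM, and Acadl and Acads lay within each other's SD.

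**Figure D2:**
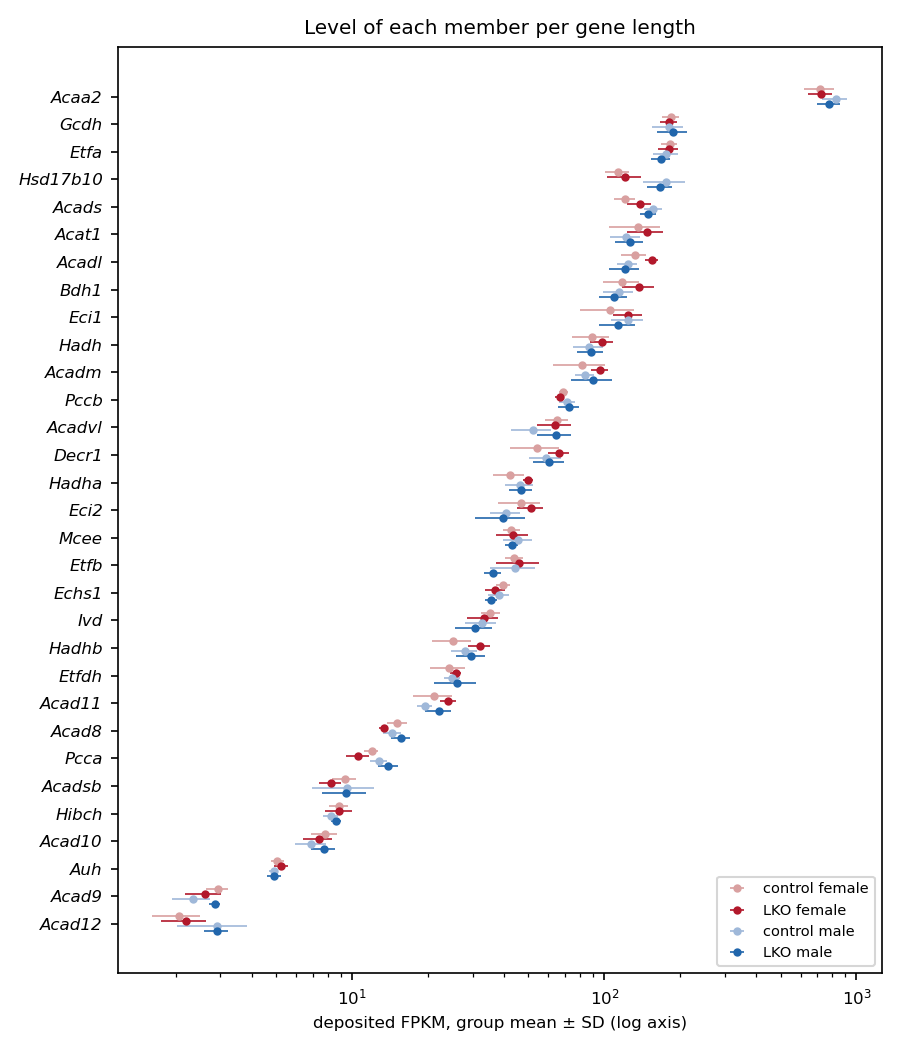
Deposited FPKM of the 31 members on a log axis, ordered by their mean, with the group mean as a point and the SD as a bar for each of the 4 groups. Acaa2 stands alone at the top near 717 to 826 FPKM, and Acad12 and Acad9 are the lowest.

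Hadha and Hadhb encode the alpha and beta subunits of the mitochondrial trifunctional protein, which carries out hydration, hydroxyacyl dehydrogenation and thiolysis of long chains. The tables place Hadha on the minus strand at chr5:30323302-30360160 and Hadhb on the plus strand at chr5:30360246-30389591 (mm39), so their starts face each other across 85 bases. After centring log2 CPM on the 4 group means, Hadha and Hadhb had r = 0.922 over 23 livers. Hadhb had the same r with Decr1, which lies on chr4, and 0.907 with Acadl, which lies on chr1. That shared stretch was not tested for a part in these values. It is read on the plus strand of GRCm38.p6 from the RefSeq promoter table, at chr5:30155163-30155247, with a GC content of 69.4 percent and with the GC box GGGCGG, on either strand, in capitals.
Hadha-Hadhb: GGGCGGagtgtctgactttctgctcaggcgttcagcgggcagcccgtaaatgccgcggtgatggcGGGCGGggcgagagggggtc

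The same table held 29 promoters of 27 members, all but those of Acaa2, Decr1, Acad9 and Acat1. In the 250 bases before the start, on both strands, AGGTCA, the half-site of PPAR-alpha and other nuclear receptors, was found in 4 of 29 member promoters (13.8 percent) and in 14 percent of all 32851 promoters. The direct repeat AGGTCANAGGTCA, which contains that half-site, was found in 0 of the 29 and in 0.0335 percent of all. GGGCGG was found in 17 of 29 (58.6 percent, against 32.7 percent of all) and CCAAT in 13 of 29 (44.8 percent, against 33.8 percent). These are matches of letters in a window and no test was made. The 4 half-site windows are shown 5′ to 3′ along the gene, with the half-site in capitals as AGGTCA or, where it lies on the opposite strand, as TGACCT. They lie at chr3:153944857-153944893 (Acadm, minus strand), chr11:70015480-70015545 (Acadvl, minus), chr7:140116477-140116534 (Echs1, minus) and chr14:122484138-122484203 (Pcca, plus) of GRCm38.p6, and the half-sites start 249, 87, 83 and 197 bases before the gene starts.
Acadm: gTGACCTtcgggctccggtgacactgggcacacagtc
Acadvl: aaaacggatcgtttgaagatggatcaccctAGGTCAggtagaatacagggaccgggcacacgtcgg
Echs1: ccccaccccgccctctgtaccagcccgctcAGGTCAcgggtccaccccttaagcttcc
Pcca: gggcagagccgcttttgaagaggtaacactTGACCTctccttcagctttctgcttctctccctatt

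The first step of each cycle belongs to the acyl-CoA dehydrogenases, named for the chain length they prefer. Acadl, the long-chain enzyme, had 221, 273 and 299 CPM as its lowest, median and highest control female and 288, 310 and 344 in LKO females. Of the LKO females 5 of 6 lay above every control and 1 lay inside the control range. The log2 fold change was 0.23 (SE 0.09, 95 percent interval 0.05 to 0.41, adjusted p = 0.204). In males the 5 controls read 231, 240, 266, 227 and 279 CPM, inside the LKO male range of 212 to 301, for a log2 fold change of -0.03 (adjusted p = 0.943).

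Acadm, the medium-chain enzyme whose human deficiency is a common disorder of fatty acid oxidation, spread widely among controls. Control females lay at 251, 308 and 442 CPM (lowest, median, highest) and LKO females at 335, 384 and 413, within that range. Control males read 301, 346, 332, 297 and 362 CPM, and LKO males ran from 299.7 to 484 with a median of 336. One LKO male set the top of its group, and the log2 fold change averaged over both sexes was 0.18 (SE 0.09, interval -0.01 to 0.37, adjusted p = 0.352).

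Acads, the short-chain enzyme, had 246, 269 and 309 CPM in control females and 282, 318 and 365 in LKO females, with the groups overlapping. Its female log2 fold change was 0.20 (SE 0.09, adjusted p = 0.294). In males it was -0.06 (adjusted p = 0.828), and the difference between the sexes in the genotype effect was 0.26 (SE 0.12, adjusted p = 0.36).

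Acadvl, the membrane-bound very-long-chain enzyme that takes the first cut of the longest chains, showed its larger difference in males. The 5 control males read 133, 163, 171, 110 and 125 CPM, and LKO males lay at 135, 171 and 211 (lowest, median, highest). The groups overlapped and the log2 fold change was 0.30 (SE 0.14, interval 0.01 to 0.59, adjusted p = 0.391). In females, controls at 149 to 204 and LKO livers at 125 to 206 CPM covered each other, with a log2 fold change of -0.02.

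The further dehydrogenases are relatives with other or less settled roles. Acad9 had 22, 23.2, 18.6, 15.5 and 16.5 CPM in the control males and 22, 23.2 and 24.9 (lowest, median, highest) in LKO males. Of the control males, replicates 3, 4 and 6 lay below every LKO male, and replicates 1 and 2 lay among them. The male log2 fold change was 0.29 (SE 0.11, interval 0.06 to 0.52, adjusted p = 0.312). The female value had the other sign, with 21.5, 24 and 27 CPM in controls and 15, 22.8 and 24.8 in LKO livers, a log2 fold change of -0.17 (adjusted p = 0.512). The difference between the sexes was -0.46 (SE 0.16, interval -0.78 to -0.13, unadjusted p = 0.00859) and did not pass after adjustment (adjusted p = 0.263).

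Acad11, a peroxisomal and mitochondrial relative, showed nearly the same fold change in both sexes. Control females lay at 158, 207 and 251 CPM and LKO females at 215, 234 and 262, while control males read 176, 209, 183, 191 and 193 and LKO males lay at 194, 211 and 268. LKO livers lay in the upper part of the control range or above it. The log2 fold change was 0.19 in each sex and 0.19 on average (SE 0.07, interval 0.04 to 0.34, adjusted p = 0.221).

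Acad10 and Acad12 are neighbouring relatives on the same strand of chr5, 2087 bases apart in the tables, and how reads that fit both were counted is not given in the sources used here. Acad10 had 39.9, 45.8, 44.6, 32.2 and 46.7 CPM in control males and 43.6, 45.5 and 57.5 in LKO males, with a log2 fold change of 0.17 (SE 0.11, interval -0.06 to 0.40, adjusted p = 0.551). Acad12 was at 13.5 ± 2.92 CPM in control females and 14.4 ± 2.90 in LKO females, and at 19 CPM in both male groups.

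Hadhb gave the lowest p of all members in females. It had 126, 174 and 202 CPM (lowest, median, highest) in control females and 187, 214 and 249 in LKO females. The lowest 2 LKO females lay inside the control range and the other 4 above it. This gave a log2 fold change of 0.36 (SE 0.11, interval 0.12 to 0.60, unadjusted p = 0.00653, adjusted p = 0.132), and the authors' deposited table gives an adjusted p of 0.0663 for it. Leaving out single livers moved the value between 0.29 and 0.42 and the edgeR adjusted p between 0.0809 and 0.273. In males the controls read 172, 168, 207, 166 and 211 CPM and LKO livers 171, 193 and 244, which covers nearly the same range, with a log2 fold change of 0.09 (adjusted p = 0.799). Over both sexes it was 0.22 (SE 0.08, interval 0.06 to 0.39, adjusted p = 0.194), and the difference between the sexes did not pass (0.27, adjusted p = 0.489).

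Hadha had the third lowest p in females. Control females lay at 297, 382 and 430 CPM and LKO females at 421, 439 and 477, so that every LKO female stood above 5 of the 6 controls and the groups overlapped at the top control. The female log2 fold change was 0.25 (SE 0.09, interval 0.05 to 0.45, adjusted p = 0.214). Control males read 380, 379, 445, 348 and 470 CPM, and LKO males lay at 363, 399 and 477, for a log2 fold change of 0.02 (adjusted p = 0.959). Averaged over the sexes it was 0.14 (SE 0.07, interval -0.01 to 0.28, adjusted p = 0.361).

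Other enzymes hydrate, oxidise and cleave shorter chains. Hadh, the hydroxyacyl-CoA dehydrogenase for medium and short chains, had a log2 fold change of 0.14 in females and 0.02 in males. Acaa2 had 0.02 and -0.08. Echs1, the enoyl-CoA hydratase for short chains, was at 332 ± 20 and 311 ± 26.5 CPM in control and LKO females (lowest, median and highest 300.1, 333 and 360 against 272, 313 and 343). Control males read 315, 323, 292, 291 and 367 CPM, and LKO males lay at 278, 299 and 322. The groups overlapped in each sex, and Echs1 had -0.10 in each sex and -0.10 on average (SE 0.05, interval -0.21 to 0.01, adjusted p = 0.395). Echs1 overlaps Paox on the opposite strand, whose mean count is 14.6 percent of its own, and whether the counting used strand is not given in the sources used here.

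**Figure D3:**
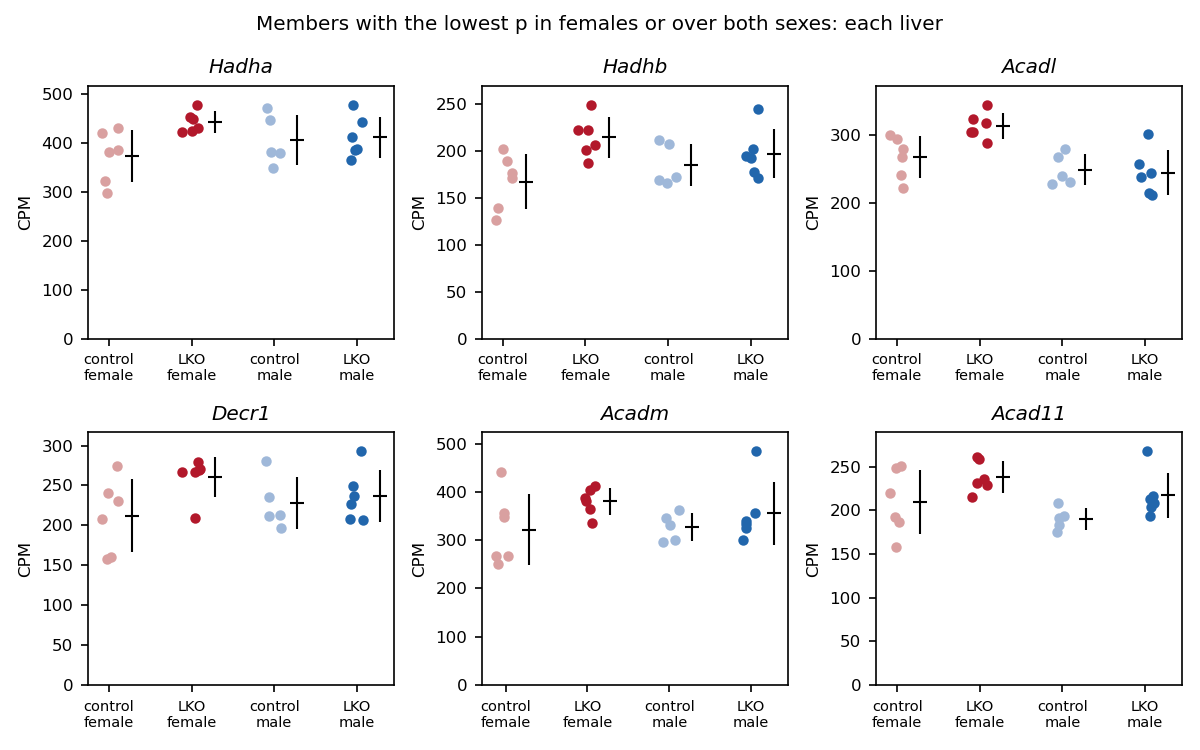
CPM of 6 members in every liver (points) with the group mean and SD (black) for the 4 groups; the axes start at 0. LKO females stand toward the upper end of the control range or above it for Hadha, Hadhb and Acadl. For Decr1 they do so apart from replicate 6, at 210 CPM, below the control female median of 220. The male groups overlap for each gene. For Acad11 the lowest LKO male, at 194 CPM, lies above the control male median of 191. None of the 6 passed the adjusted test.

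Unsaturated fatty acids need auxiliary enzymes to shift or reduce their double bonds. Decr1, the dienoyl-CoA reductase, had 158, 220 and 275 CPM in control females and 210, 268 and 279 in LKO females. The lowest LKO female, replicate 6, lay below the control median. The other LKO females, from 266 CPM up, crowded the top of the control range or passed it. The log2 fold change was 0.29 (SE 0.13, interval 0.02 to 0.57, adjusted p = 0.294). In males the controls read 212, 214, 236, 197 and 280 CPM and LKO livers 206, 232 and 293, with 0.05 (adjusted p = 0.898), and the average over the sexes was 0.18 (SE 0.09, adjusted p = 0.373). The enoyl-CoA isomerases Eci1 and Eci2 had 0.24 and 0.14 in females and -0.12 and -0.04 in males. All 3 auxiliary enzymes were thus above 0 in females and 1 of 3 in males, with 0 of 3 called.

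Electrons from the dehydrogenases pass through Etfa and Etfb, the subunits of the electron transfer flavoprotein, to Etfdh, which hands them to ubiquinone. Etfb had 44.1, 45.8, 42.1, 64.2 and 60.5 CPM in control males and 39.6, 40.7 and 48.4 (lowest, median, highest) in LKO males. Control replicates 4 and 6 stood above every LKO male and the other 3 controls lay among them. The log2 fold change was -0.28 (SE 0.11, interval -0.52 to -0.04, adjusted p = 0.343), and leaving out control replicate 4 brought it to -0.19. Its partner Etfa had -0.06 in males, and Etfdh had 0.06. In females the 3 genes had 0.07, -0.01 and 0.09.

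Acat1 joins acetyl-CoA units on the way to ketone bodies, and Bdh1 interconverts acetoacetate and beta-hydroxybutyrate. Acat1 had 515 ± 118 CPM in control females, 561 ± 90.3 in LKO females, 459 ± 62.4 in control males and 478 ± 59.2 in LKO males, with log2 fold changes of 0.12 and 0.06. Bdh1 had 462 ± 74.5, 542 ± 77.4, 445 ± 59.6 and 427 ± 54.8 CPM in the same order, with 0.23 (adjusted p = 0.375) and -0.06. Neither member was called. Of the other ketone genes, 0 of 8 tested were called in females and 0 of 8 in males. In edgeR 2 and 1 of them were at an unadjusted p under 0.05, where 15.6 and 12.5 percent of all genes were. The lowest p in that list belonged to the monocarboxylate transporter Slc16a7 in females (0.30, adjusted p = 0.24) and to the acetoacetyl-CoA synthetase Aacs in males (-0.55, adjusted p = 0.396).

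The propionate branch turns the last carbons of odd chains and of valine and isoleucine into succinyl-CoA. Pcca, the alpha subunit of propionyl-CoA carboxylase, had 58.0, 62.8 and 68.7 CPM in control females and 46.7, 56.6 and 61.6 in LKO females, overlapping, for a log2 fold change of -0.17 (unadjusted p = 0.046, adjusted p = 0.31). Control males read 62.5, 74.4, 62.2, 63.8 and 69.0 CPM and LKO males lay at 64.3, 72.3 and 83.7, for 0.13 (SE 0.08, interval -0.04 to 0.31, adjusted p = 0.53). The difference between the sexes was -0.30 (SE 0.11, interval -0.53 to -0.08, unadjusted p = 0.0113, adjusted p = 0.278). Pcca overlaps Ggact on the opposite strand, whose mean count is 89.1 percent of its own, so its values are uncertain if the counting ignored strand. Its partner Pccb had -0.04 and 0.03, and the epimerase Mcee had 0.03 and -0.08 in females and males.

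The dehydrogenases of branched-chain and lysine breakdown are relatives of the fatty acid dehydrogenases that act on amino acid carbons, and Auh and Hibch act at later steps. Acad8, the isobutyryl-CoA dehydrogenase of valine breakdown, had 54.0, 63.3 and 70.2 CPM in control females and 52.5, 56.4 and 58.2 in LKO females. LKO females filled the lower part of the control range, with a log2 fold change of -0.17 (SE 0.07, adjusted p = 0.239). Control males read 55.8, 62.6, 54.1, 65.7 and 60.7 CPM and LKO males lay at 57.6, 63.4 and 72.5, for 0.12 (adjusted p = 0.569). The difference between the sexes was -0.29 (SE 0.10, interval -0.51 to -0.08, unadjusted p = 0.00864, adjusted p = 0.263). Acadsb, which acts in isoleucine breakdown, had the lowest female value of all members, -0.18 (adjusted p = 0.353), and -0.01 in males. It overlaps Fgfr2 on the opposite strand, whose mean count is 37.4 percent of its own. Ivd, of leucine breakdown, had -0.08 in each sex. Gcdh had -0.02 and 0.07, Auh, the methylglutaconyl-CoA hydratase of leucine breakdown, 0.05 and 0.02, and Hibch, of valine breakdown, 0.01 and 0.08.

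By role, the female medians of the log2 fold change were 0.21 for the 4 classic dehydrogenases, 0.12 for the 6 genes of hydration, dehydrogenation and thiolysis, 0.24 for the 3 double-bond enzymes and 0.18 for Acat1 and Bdh1. They were 0.01 for the 4 further dehydrogenases, 0.07 for the 3 genes of electron transfer, -0.04 for the 3 propionate genes and -0.05 for the 6 branched-chain and lysine genes. The median over all genes was 0.01. In males the same 8 medians were 0.04, -0.03, -0.04, -0.00, 0.18, -0.06, 0.03 and 0.04. No role was tested as a set, and 0 members were called in any of them. Beside these values, 7 of 10 hepatocyte markers were below 0 in LKO females (median -0.25, 0 called), with summed levels of 70336 to 108566 CPM against 95149 to 116785 in controls, and their part in the female values was not tested.

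The upstream and neighbouring pathways gave few calls. In the carnitine shuttle Cpt1a was the 1 gene called of 6 tested, lower in both sexes. In females the other 5 were above 0, with a list median of 0.47, and 3 of them were at an unadjusted p under 0.05. LKO and control females did not overlap for 2 of the 6, Cpt1a among them, where 1.59 percent of all genes did not overlap. In males 4 of 6 were above 0, with a median of 0.10, and 1 of those 4 was at an unadjusted p under 0.05. Cpt2, the inner-membrane transferase, had 0.22 and 0.10, and Slc25a20, the carnitine-acylcarnitine carrier, 0.37 (adjusted p = 0.245) and 0.20. Of 15 peroxisomal beta-oxidation genes 0 were called in either sex, with 12 above 0 in females (median 0.19) and 11 in males (median 0.06). The thiolase Acaa1a had the lowest p there in females (0.36, adjusted p = 0.16) and the transporter Abcd3 in males (0.19, adjusted p = 0.396). At an unadjusted p under 0.05 edgeR gave 6 genes of that list in females, 5 higher and 1 lower, and 1 in males. Over all genes the shares at that p were 15.6 percent in females and 12.5 percent in males.

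Among 20 other PPAR-alpha targets in females, the lipid droplet gene Cidec rose by 2.01 (SE 0.32, adjusted p = 0.00691) and the mitochondrial acyl-CoA thioesterase Acot2 by 1.39 (SE 0.31, adjusted p = 0.0384), and Cpt1a fell. The median of that list was 0.39 and 18 of 20 were above 0. In edgeR 13 of 20 had an unadjusted p under 0.05, 12 of them higher and the ablated Cpt1a lower, against 15.6 percent of all genes. LKO and control livers did not overlap for 3 of 20, Cpt1a among them, against 1.59 percent of all genes. Of all genes tested in females 1.42 percent were called. In males only Cpt1a was called, and the median was 0.05. Ppara itself had 0.02 in females and 0.12 in males. This list shares some genes, such as Cpt2, Slc25a20 and Ehhadh, with the other lists.

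Of 18 branched-chain and propionate genes outside the members, 0 were called in either sex, and the cobalamin adenosyltransferase Mmab had the lowest p, at -0.38 (adjusted p = 0.0917) in females and -0.20 (adjusted p = 0.471) in males. Of 23 other nuclear-encoded mitochondrial genes, 0 were called in either sex, with medians of 0.04 and -0.01. Cytochrome c (Cycs) had the lowest p in females (0.27, adjusted p = 0.0758). At an unadjusted p under 0.05 edgeR gave 5 and 0 genes of the branched-chain list and 5 and 4 of the mitochondrial list. Over all genes those shares were 15.6 percent in females and 12.5 percent in males. None of the 12 transcription factors of the pathway was called, with 1 gene at an unadjusted p under 0.05 in each sex, and Tfeb had the lowest p in both (0.36, adjusted p = 0.226, and -0.21, adjusted p = 0.393).

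Hsd17b10 and Acads differed between control females and control males. These 2 of 31 members were called, both lower in females, where 18 percent of the 13699 genes tested were called and 9.2 percent were called lower. The groups did not overlap for the same 2 members, where 10.3 percent of all genes did not overlap. At an unadjusted p under 0.05 there were 5 of 31, where 33.1 percent of all genes were. All 3 shares of the members lie below those of all genes, and no test was made of that. Each sex has its own deposited table, and effects of sex and of table cannot be told apart.

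Hsd17b10, a hydroxyacyl-CoA dehydrogenase of isoleucine breakdown that is also a subunit of mitochondrial RNase P, is the only X-linked member, at chrX:150784841-150787438 (mm39). Control females lay at 128, 145 and 168 CPM (lowest, median, highest) and control males read 212, 219, 186, 228 and 300.2. Every control female was below every control male. The log2 difference was -0.63, that is, 0.648 times the male level (SE 0.12, interval -0.88 to -0.37, adjusted p = 0.00356). LKO livers held 160 ± 23.8 CPM in females and 218 ± 23.8 in males, and its log2 fold changes with genotype were 0.10 and -0.07, neither called.

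Acads, at chr5:115248358-115257405 (mm39), lay at 246, 269 and 309 CPM in control females, and control males read 352, 341, 347, 333 and 407. Again no control female reached a control male. The log2 difference was -0.37, 0.774 times the male level (SE 0.09, interval -0.56 to -0.18, adjusted p = 0.0119). LKO females, at 282 to 365 CPM, reached into the LKO male range of 304 to 375. Acad9 and Acadvl had the next values in the opposite direction, 0.33 (SE 0.12, interval 0.08 to 0.58, adjusted p = 0.0617) and 0.33 (adjusted p = 0.0773), and did not pass. Acad12 had -0.50 (SE 0.21, interval -0.96 to -0.05, adjusted p = 0.114), the second largest difference among the members, and did not pass. Single control males decided these 3: Acad9 passed without replicate 2 (0.40, adjusted p = 0.0353), Acadvl without replicate 3 (0.40, adjusted p = 0.0395) and Acad12 without replicate 4 (-0.68, adjusted p = 0.00596).

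**Figure D4:**
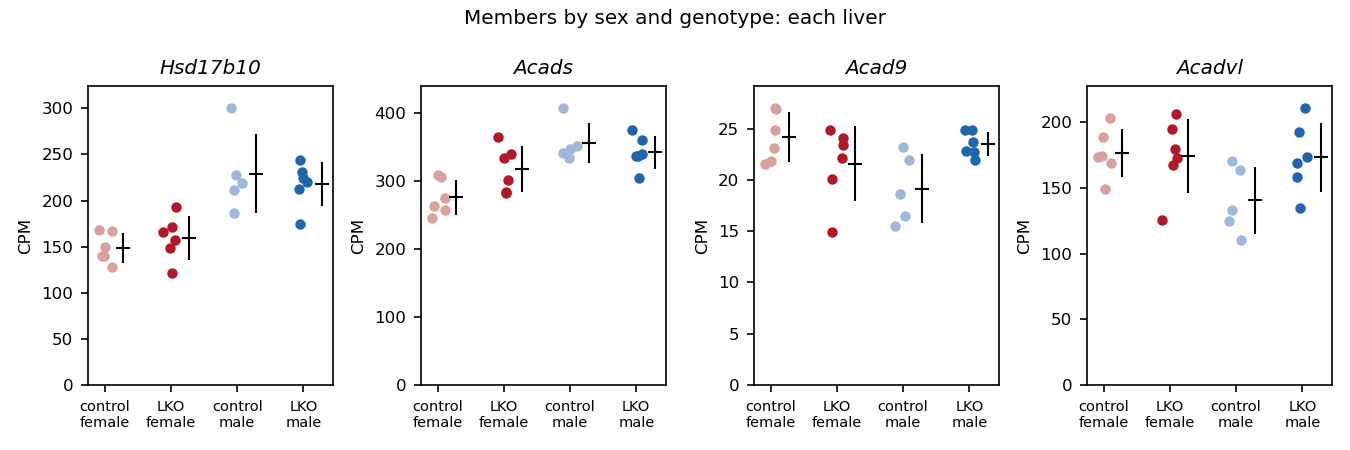
CPM of Hsd17b10, Acads, Acad9 and Acadvl in every liver (points) with the group mean and SD (black); the axes start at 0. The control females lie below the control males for Hsd17b10 (128 to 168 against 186 to 300.2 CPM) and Acads, and the groups overlap for Acad9 and Acadvl.

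Other genes of the same pathways were called between the control sexes in both directions. The peroxisomal Scp2 (-0.69, adjusted p = 0.0014) and Hsd17b4 (-0.44, adjusted p = 0.0297) were lower in females. The peroxisomal Ehhadh (0.57, adjusted p = 0.0392) and the coactivator Ppargc1a (1.09, adjusted p = 0.0225) were higher in females. Markers of several cell types were called too. Higher in control females were the hepatocyte markers Alb, Cps1 and Pck1, the macrophage markers Timd4 (1.45), Vsig4 (1.03), Clec4f (0.92) and Csf1r (0.60) and the endothelial Stab2 (0.39). Lower were the macrophage marker Gpnmb (-3.76), the red cell gene Alas2 (-2.01), the stellate Col1a1 (-1.48) and the cholangiocyte Spp1 (-0.91). Their part in the sex differences of members was not tested.

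The members varied together from liver to liver within the groups. After centring log2 CPM on each of the 4 group means, the median correlation over the 465 pairs of members was 0.435 across 23 livers, and 40.4 percent of pairs had an r over 0.5. Of all pairs of a member with any gene, 4.67 percent had an r over 0.5, with a median of -0.00452. These values share libraries and normalization and are given as a description. The summed share of all counts taken by the 31 members ran from 0.618 to 0.817 percent in control females, 0.697 to 0.866 in LKO females, 0.649 to 0.807 in control males and 0.709 to 0.917 in LKO males.

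The closest partners were found among Acadl, Hadha, Hadhb, Hadh, Eci1 and Decr1, whose 15 pairs had r of 0.805 to 0.946. Eci1 with Decr1 was the highest of all 465 pairs. Other members came as close, such as Eci1 with Bdh1 (0.886), Acadm with Etfdh (0.87) and Acads with Bdh1 (0.86). The very-long-chain enzyme Acadvl stood apart from that set, with r from 0.204 (Eci1) to 0.488 (Hadha). The head-to-head genes Hadha and Hadhb had r = 0.922 and rho = 0.891, and r = 0.896 without the 2 livers farthest from the median. Within groups that pair had 0.995 in control females, 0.976 in control males, 0.645 in LKO females and 0.901 in LKO males. Among 14502 other genes the 5 most like Hadhb were Decr1 (0.922), Hadha (0.922), Acadl (0.907), the carrier Slc25a20 (0.888) and the monoglyceride lipase Mgll (0.872). Hadhb had r = 0.594 with Ppara and -0.0606 with the citrate synthase gene Cs, over the same 23 livers. Within groups of 5 or 6 livers, r with Ppara was 0.555 to 0.776. With Cs it was 0.11 in control females and 0.535 in control males, and -0.695 in LKO females and -0.718 in LKO males. For Hadhb r was 0.121 with the total count and 0.164 with the TMM factor of the library.

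The amino acid dehydrogenases Acadsb, Acad8, Ivd and Gcdh had r of 0.702 to 0.808 among themselves, over 6 pairs. Their 24 pairs with Acadl, Hadha, Hadhb, Hadh, Eci1 and Decr1 had a median r of -0.113, from -0.373 to 0.391. Both sets were picked after the values were seen. Acad9 stood furthest from the rest by its median r, -0.178 to the other 30 members. It had the lowest pair of all, -0.761 with Etfb, and its highest r was 0.632, with Acadvl. Acad12 had a median of 0.0668. The subunit partners Etfa and Etfb had r = 0.751 and rho = 0.752, and r = 0.735 without the 2 farthest livers. For Pcca and Pccb these values were 0.428, 0.351 and 0.307, with -0.717 within control females and 0.552 to 0.764 within the other groups. Acad10 and Acad12 had 0.613, 0.515 and 0.536.

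**Figure D5:**
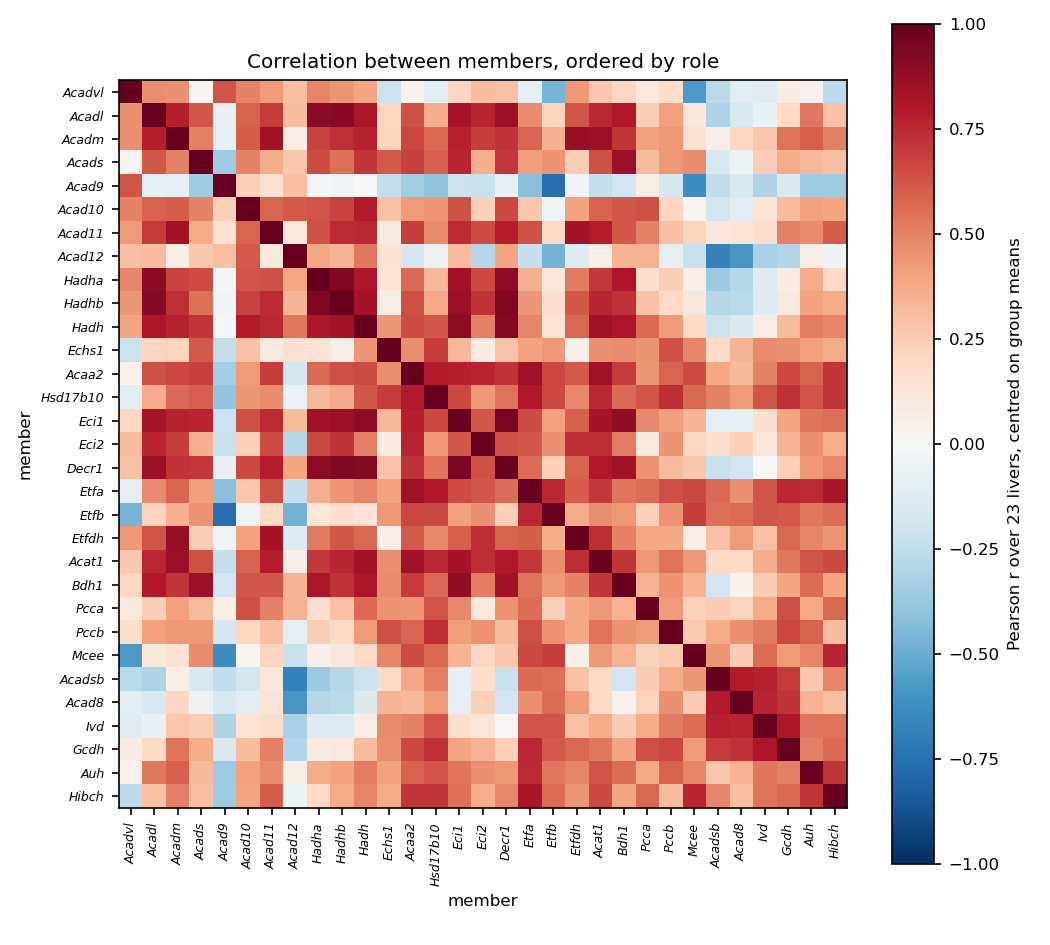
Pearson r between each pair of the 31 members over 23 livers, after centring log2 CPM on the 4 group means, with members ordered by role. A block of high values (red) covers Hadha, Hadhb, Hadh, Eci1, Decr1 and Acadl, while Acad9 is mostly near or below 0.

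The liver that stood highest was LKO male replicate 5, where 29 of 31 members lay above the mean of its group and the members took 0.917 percent of counts. In control male replicate 6 also 29 of 31 lay above the group mean. By the median deviation of the members from their group means, LKO female replicate 6 was the lowest liver, at -0.19 log2. It had 4 of 31 above its group mean and 0.697 percent of counts, the lowest share among LKO females. Control female replicate 5 and control male replicate 1 each had 3 of 31 above the group mean. Control female replicate 6 had the lowest share of all livers, 0.618 percent.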

How the data were processed

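Liver RNA of 23 mice was sequenced after poly-T selection and dUTP library construction, per the labels. The authors aligned reads with HISAT2 2.0.5 to mm39, per the submitters' processing notes; the counter, annotation and use of strand are not given in the sources used here. The authors deposited 1 table per sex (24940 genes for females, 24434 for males) with raw read counts, a normalized count signal (not used here), FPKM, and p-values (raw and adjusted) beside log2 fold changes of their own.

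From the deposited counts, genes passing filterByExpr were scaled by TMM and tested in edgeR 4.0.16 (R 4.3.3) by the quasi-likelihood test, adjusting p-values over every gene tested (Benjamini-Hochberg). Each sex was fitted alone. The average over sexes and the interaction used all 23 livers and 4 group means, and the control sexes were compared over genes in both tables. CPM values use TMM factors of all 23 livers. Standard errors are the log2 fold change over the root of F. The scripts were tested on simulated data. Replicate libraries differed beyond sampling noise (chi-square per gene of 10.6 to 109.6 over 55 pairs). At least 114 counts lay behind every member value, and for the lower members counting error is part of the spread between livers.

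The members and gene lists were chosen with earlier results of these data known. All members are named. Some genes of the lists are not reported here. Values by liver (lowest, median and highest in groups of 6, each liver in control males) are given for those called in any test, for the 6 of lowest p in the female, male and average tests, and for the 3 of lowest p in the interaction and between control sexes. Alternatives were RLE factors, library size alone, other filters, DESeq2 1.42.0, limma-trend (limma 3.58.1) on log2(FPKM + 1) and log2(FPKM + 0.1), a fit of all livers, a replicate block and leaving out each liver.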

Additional observations from a re-analysis of the deposited data

Results flagged for a closer look

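In each group the highest or lowest liver of a member was set against its neighbours. By Dixon's criterion 8 of 124 groups (6.45 percent) held a liver far from the others, where chance gives about 1 in 20 for independent groups. The 124 groups reuse the same 23 livers and hold members that vary together, so they are not independent. LKO male replicate 5 was the highest of its group for 5 members: Acadm at 484 CPM (next liver 356), Acad10 at 57.5 (next 46.2), Acad11 at 268 (next 217), Eci1 at 319 (next 250.1) and Etfdh at 265 (next 198). LKO female replicate 6 was the lowest of its group for Hadh, at 392 CPM (next 501), and for Decr1, at 210 (next 266). Control male replicate 6 was the highest for Acads, at 407 CPM (next 352).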

How the results depend on the processing

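The number of members called with genotype was 0 in females, in males, in the average and in the interaction under every alternative run, leaving out each liver included. Between control females and control males it was 2, or 2 to 3 when single livers were left out, and 1 with a replicate block. The median log2 fold change of the members in males, 0.02, turned below 0 with a replicate block (-0.0088) and without LKO male replicate 5 (-0.015); leaving out single livers gave -0.015 to 0.065, and 0.037 to 0.097 in females and 0.024 to 0.074 in the average. The cause was not tested. Hsd17b10 kept its call between the control sexes in every alternative run.

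The labels do not say that replicate numbers mark shared litters or days. Control and LKO livers with the same number correlated from -0.0134 to 0.183 in females (6 pairs, 4 of them best with their own number). In males they correlated from -0.377 to 0.417 (5 pairs, 1 best). These values do not settle whether the numbers pair livers, and the main tests treated them as unpaired because the labels state no pairing. The check was made within each sex, so it cannot tell whether numbers pair control females with control males. With the replicate block, Acads between control sexes was -0.36 (adjusted p = 0.0967).

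The FPKM alternatives were not run between the sexes because the tables were scaled separately.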
